A study of Homo sapiens with 4 samples.

Results

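The 39 genes described here supply acetyl-CoA for protein acetylation, write acetyl marks, erase them or read them. They were taken by symbol from the deposited count table: 4 genes of acetyl-CoA supply, 16 acetyltransferases, 17 deacetylases and 2 readers. All 39 were found among 59050 listed genes, and all 39 were among the 17564 that passed a filter on low counts. The libraries came from HUES8, a human embryonic stem cell line, cultured on Matrigel in mTeSR1, a feeder-free stem cell medium. There were 2 libraries with the genotype label WT and 2 with the label CPT2 KO, and the treatment label read WT for all of them. CPT2 is a mitochondrial enzyme of long-chain fatty acid oxidation, a pathway that ends in acetyl-CoA, and the study title links fatty acid synthesis and oxidation to endoderm formation through acetylation of SMAD3. How the CPT2 KO cells were made, and whether they are 1 clone, is not given here. No label says that replicates were separate cultures, so p-values measure only how far these libraries differ, and that spread may be technical.

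Acetylation of lysine uses acetyl-CoA as the donor. In the cytosol and nucleus acetyl-CoA is made from citrate by ACLY and from acetate by ACSS2. ACSS1 uses acetate inside mitochondria, and SLC33A1 carries acetyl-CoA into the endoplasmic reticulum. Acetyltransferases move the acetyl group onto histones and other proteins, zinc-dependent histone deacetylases (HDACs) and NAD-dependent sirtuins remove it, and bromodomain proteins such as BRD2 and BRD3 bind acetylated lysine. In stem cells such enzymes act at enhancers and promoters of pluripotency and differentiation genes.

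Library totals ranged from 16887789 to 20460031 counts. The transcript of CPT2 itself was higher under the label CPT2 KO, with 52 and 72 counts against 233 and 170 (edgeR adjusted p = 0.0218). Here and in all such pairs that follow, label WT comes first and label CPT2 KO second, replicate 1 before replicate 2. Exons of CPT2 overlap C1orf123 on the opposite strand. That symbol is not listed, and genes were matched by symbol, so whether the gene was counted under another name is not known. How the knockout was made is not given, so these counts do not settle the genotype. Differences are therefore stated between libraries as labelled. Replicate 1 labelled WT stood apart: summed over 20 hypoxia and glycolysis genes its level was 13328 CPM (counts after scaling for library size), against 4479 CPM in the other library labelled WT and 4509 to 5226 CPM in those labelled CPT2 KO. BNIP3, a hypoxia gene of that list, stood at 593 and 116 CPM against 199 and 107 CPM. Mitochondrial genes held 4.15% of the counts of replicate 1 labelled WT and 7.21% to 7.84% in the other libraries. Across genes, chi-square per degree of freedom of the counts was 44.4 between the libraries labelled WT. It was 13.6 and 13.9 between replicate 2 labelled WT and those labelled CPT2 KO. Correlations of log2 CPM for the same pairs were 0.979, 0.978 and 0.977. All 12 markers of undifferentiated stem cells had counts in every library, with sums of 10764 to 11509 CPM under the label WT and 11392 to 12831 CPM under CPT2 KO. Mesendoderm markers (14 listed) summed to 15.7 to 16.1 CPM under the label WT and to 105 to 352 CPM under CPT2 KO, with SOX17 and GATA6 at 0 counts in both libraries labelled WT. Of 11 tested, edgeR called NODAL, FGF8 and WNT3 higher and 0 lower. Neuroectoderm markers (10 listed) summed to 309 to 329 CPM against 360.0 to 422 CPM, although edgeR called 0 of the 6 tested higher and 2 lower (SOX1 and SIX6). Fibroblast markers (10 listed) summed to 486 to 512 CPM against 445 to 459 CPM. The neuroectoderm gene LHX2 and the fibroblast gene LUM were at 0 counts in both libraries labelled WT, and the fibroblast gene DCN in both labelled CPT2 KO. The part of these marker differences in the results on acetylation genes was not tested.

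Promoter windows of ACSS2, ACLY and HDAC9 are shown because the main differences between libraries below lie in these genes. Each window is RefSeq sequence on GRCh38.p14, from 250 bases before to 50 after a start site, written on the strand of the gene. Capitals mark matches on either strand to the GC box GGGCGG, the CCAAT box CCAAT or the MEF2 site (CTA, any 4 bases, TAG). ACSS2 has windows at 2 start sites, chr20:34874739-34875038 and chr20:34876362-34876661 on the plus strand. The ACLY window is chr17:41918973-41919272 on the minus strand. For HDAC9, windows at distant start sites are given, chr7:18086575-18086874 and chr7:18495499-18495798 on the plus strand, because the deposited count merges all isoforms.
ACSS2 first start: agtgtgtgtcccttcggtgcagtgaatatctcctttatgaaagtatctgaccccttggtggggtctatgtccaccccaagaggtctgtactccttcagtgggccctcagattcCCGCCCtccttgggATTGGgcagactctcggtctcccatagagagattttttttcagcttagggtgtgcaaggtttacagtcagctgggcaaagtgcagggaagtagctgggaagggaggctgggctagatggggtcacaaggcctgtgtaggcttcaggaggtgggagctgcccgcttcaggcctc
ACSS2 second start: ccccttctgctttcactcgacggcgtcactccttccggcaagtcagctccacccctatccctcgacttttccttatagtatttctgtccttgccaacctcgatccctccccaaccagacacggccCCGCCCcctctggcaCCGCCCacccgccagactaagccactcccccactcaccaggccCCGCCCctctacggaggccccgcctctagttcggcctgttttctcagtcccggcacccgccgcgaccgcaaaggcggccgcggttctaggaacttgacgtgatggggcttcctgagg
ACLY: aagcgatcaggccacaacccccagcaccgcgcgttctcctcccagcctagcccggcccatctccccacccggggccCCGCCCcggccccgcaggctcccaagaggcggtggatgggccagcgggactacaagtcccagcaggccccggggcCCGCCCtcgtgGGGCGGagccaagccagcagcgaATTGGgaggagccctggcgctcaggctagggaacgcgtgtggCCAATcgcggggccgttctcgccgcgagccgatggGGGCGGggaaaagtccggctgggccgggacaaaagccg
HDAC9 first start: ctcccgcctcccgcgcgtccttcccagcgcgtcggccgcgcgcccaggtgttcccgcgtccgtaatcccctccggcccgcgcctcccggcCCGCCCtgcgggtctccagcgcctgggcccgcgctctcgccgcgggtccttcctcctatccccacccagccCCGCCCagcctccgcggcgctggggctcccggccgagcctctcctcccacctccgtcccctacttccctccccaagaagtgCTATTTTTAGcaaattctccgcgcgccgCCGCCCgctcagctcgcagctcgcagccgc
HDAC9 second start: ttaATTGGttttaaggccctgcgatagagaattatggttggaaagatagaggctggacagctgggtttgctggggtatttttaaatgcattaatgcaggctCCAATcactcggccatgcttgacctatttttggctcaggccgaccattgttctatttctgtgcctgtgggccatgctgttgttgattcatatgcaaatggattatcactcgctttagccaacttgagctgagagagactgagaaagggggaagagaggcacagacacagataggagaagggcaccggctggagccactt

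These windows can be set beside all RefSeq promoter windows of the same length. The ACLY window held 4 GC boxes and 2 CCAAT boxes, and the second ACSS2 window 3 GC boxes and 0 CCAAT boxes. Over 57 windows of the 32 members with an entry, 34 (59.6%) held a GC box and 16 (28.1%) a CCAAT box, against 45.0% and 34.6% of all 35116 windows. The sterol regulatory element TCACNCCAC, searched on both strands, was in 0 of the 57 windows and in 1.13% of all. The E-box CACGTG was in 3 of the 57, those of HDAC4, KAT5 and SIRT1, and in 7.26% of all. The MEF2 site was searched for after the HDAC9 window had been read, and was in 1 of the 57, the first HDAC9 start, and in 2.73% of all. MEF2 factors are the classical partners of class IIa HDACs, to which HDAC9 belongs. These matches describe the letters of the windows only.

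Levels of different genes were compared as TPM, which divides counts by the listed gene length before scaling. That length merges all exons of a gene, so genes with long rare isoforms read low. TPM also moves with the share of short abundant transcripts in a library, so libraries are compared on CPM. ACLY was the most abundant of all members at 387 to 846 TPM over the 4 libraries. Within acetyl-CoA supply ACSS2 came next at 33.0 to 207 TPM. SLC33A1 stood at 5.81 to 7.04 TPM and ACSS1 at 1.87 to 2.24 TPM, and the ranges of these 4 genes did not overlap.

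KAT7, the HBO1 acetyltransferase of histone H3 lysine 14, led the acetyltransferases at 139 to 196 TPM, clear of all others. ESCO1, EP300, KAT2A and HAT1 came next, within 39.1 to 69.9 TPM and each overlapping the next. From ELP3 down to KAT6A each gene overlapped the next in range. KAT6B and KAT2B, at 3.71 to 5.10 TPM and 0.949 to 1.33 TPM, were the lowest. Among the deacetylases, HDAC2, SIRT1, HDAC1 and HDAC3 formed the top, within 56.4 to 140.2 TPM and each overlapping the next. HDAC10 was the lowest at 0.580 to 1.12 TPM, but its exons overlap MAPK12, so its level and rank are uncertain. Class I HDACs (HDAC1, HDAC2, HDAC3 and HDAC8) made up 50.7% to 56.8% of the summed level per length of the listed deacetylases. The 6 listed sirtuins made up 24.4% to 28.5%, and SIRT6 is not among the members. Class IIa HDACs (HDAC4, HDAC5, HDAC7 and HDAC9) made up 13.5% to 16.5%. Of the readers, BRD2 averaged 114 TPM over the 4 libraries and BRD3 50.2 TPM, with no overlap.

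**Figure D1:**
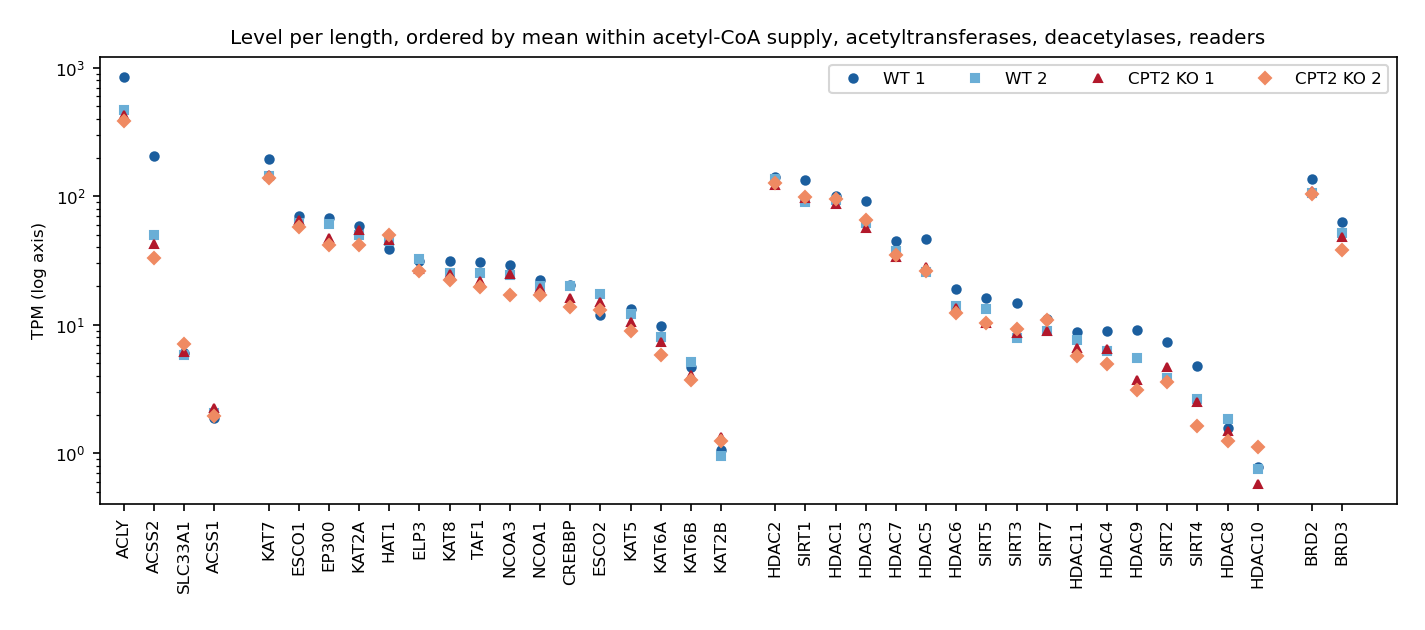
Level per length of the 39 genes in each of the 4 libraries (TPM, log axis), ordered by mean within acetyl-CoA supply, acetyltransferases, deacetylases and readers. ACLY is the most abundant member at 387 to 846 TPM and HDAC10 the least at 0.580 to 1.12 TPM. The level of HDAC10 is uncertain because its exons overlap MAPK12.

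None of the 39 members passed the test between the labels. With edgeR's quasi-likelihood test and Benjamini-Hochberg adjustment over all 17564 genes at 0.05, 0 members were higher and 0 lower under the label CPT2 KO, where 0.359% and 0.0569% of all tested genes were. DESeq2 called 1 member, HDAC9, where it called 1.11% of all genes, and limma-voom called 0, where it called 0.353%. At an unadjusted edgeR p below 0.05 there were 3 members, HDAC9, EP300 and ACLY, against 9.04% of all tested genes. All 3 were lower under the label CPT2 KO, as were 4.16% of all tested genes at that p. For 34 members the 95% interval of the fold change lay within a 2-fold change either way, as for 63.7% of all tested genes. For ACSS2, KAT2B, HDAC9, HDAC10 and SIRT4 a 2-fold change lay inside the interval.

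The fold change had a negative sign (label CPT2 KO below label WT) for 29 members and a positive one for 10, where 49.7% of all tested genes were negative. The median log2 fold change was -0.17 for the members and 0.0017 for all tested genes. Without replicate 1 labelled WT the member median was -0.06 with 23 of 39 negative, where 47.6% of all tested genes were negative. Groups did not overlap for 15 members lower and 4 higher under the label CPT2 KO, against 19.8% and 21.1% of all tested genes. The log2 difference between the libraries labelled WT was larger than the fold change between labels for 22 members, as for 58.9% of all tested genes.

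**Figure D2:**
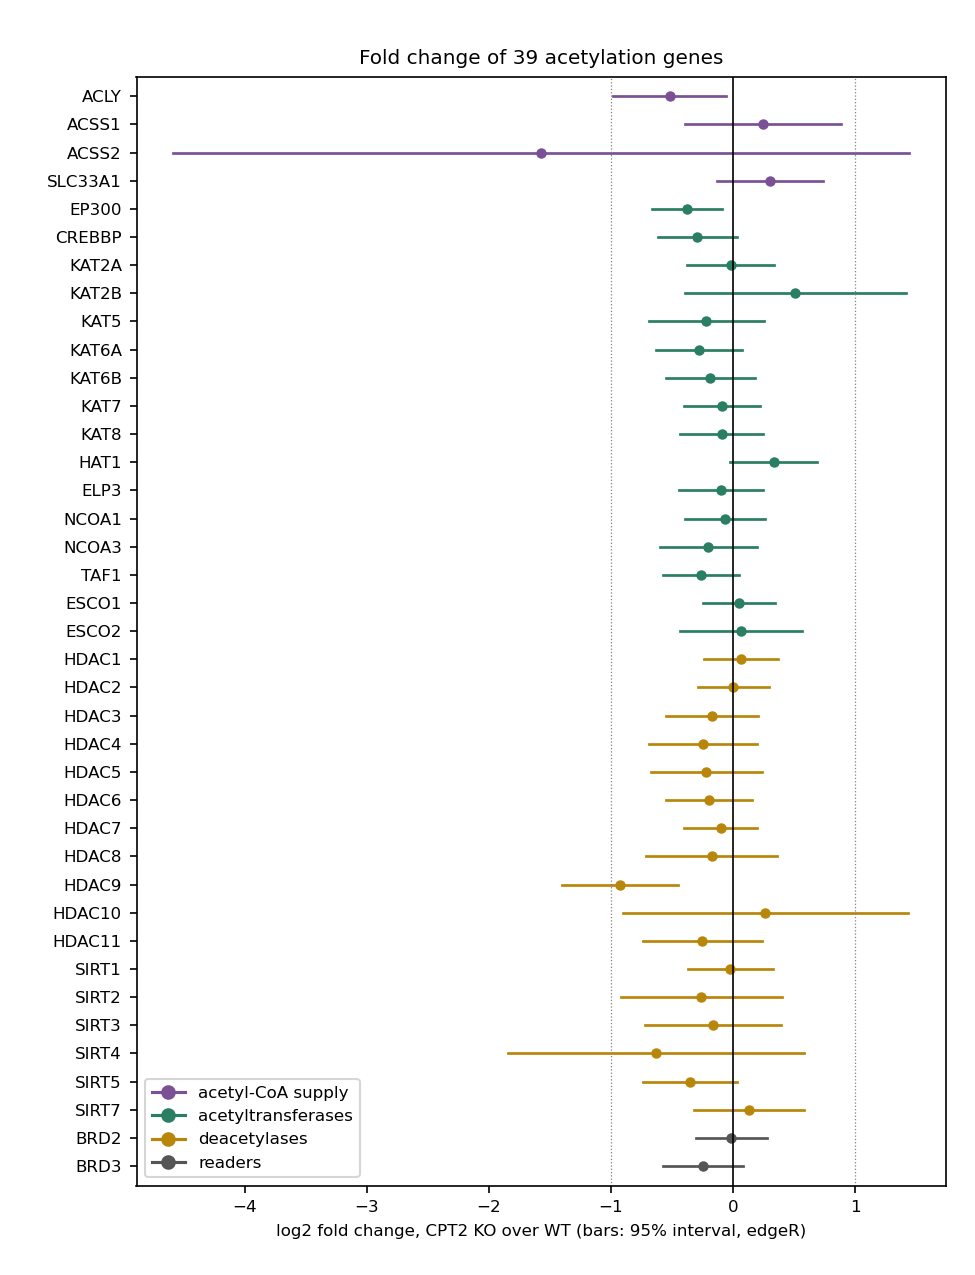
Log2 fold change of each gene (label CPT2 KO over label WT) with 95% intervals from edgeR, coloured by role; dotted lines mark a 2-fold change. The interval of HDAC9 runs from -1.40 to -0.45 and that of ACSS2, the widest, from -4.59 to 1.44.

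Acetyl-CoA supply held the largest fold change of any member, in ACSS2, and it lay mainly between the libraries labelled WT. ACSS2, which makes acetyl-CoA from acetate, stood at 275 and 75.2 CPM against 64.7 and 52.7 CPM. Replicate 1 labelled WT was 3.65-fold above replicate 2, and the other 3 libraries lay close together. The log2 fold change was -1.57 (SE 0.85, edgeR adjusted p = 0.686), and leaving out replicate 1 labelled WT gave -0.35 (edgeR adjusted p = 0.822). ACSS2 spans bases 34872146 to 34927962 of chromosome 20 (GRCh38, GENCODE 29, plus strand).

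ACLY, which splits citrate into acetyl-CoA and oxaloacetate, had the same order of libraries. It stood at 1114 and 697 CPM against 652 and 613 CPM, or 905 ± 295 CPM against 632 ± 27.7 CPM (SD, n = 2 each). Replicate 1 labelled WT was again the highest, and the groups did not overlap. The log2 fold change was -0.52 (SE 0.20, 95% interval -0.98 to -0.056, edgeR adjusted p = 0.503), and leaving out replicate 1 labelled WT gave -0.14. With replicate 1 as the lone library labelled WT, edgeR called ACLY, ACSS2 and HDAC9 lower, where it called 6.16% of all genes in either direction. ACLY and ACSS2 then had log2 fold changes of -0.82 and -2.22. ACLY spans bases 41866908 to 41930542 of chromosome 17 (minus strand), and the antisense gene over its exons had 0 counts in all libraries.

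The mitochondrial acetate enzyme ACSS1 and the transporter SLC33A1 had higher values under the label CPT2 KO and did not pass. SLC33A1 stood at 15.3 and 16.6 CPM against 17.9 and 21.5 CPM (log2 fold change 0.30, interval -0.13 to 0.74). ACSS1 stood at 4.12 and 5.05 CPM against 5.69 and 5.18 CPM (log2 fold change 0.25, interval -0.39 to 0.88). In both genes the groups did not overlap. Within libraries, ACLY exceeded ACSS2 per length by 4.09-fold and 9.34-fold under the label WT and 10.1-fold and 11.7-fold under CPT2 KO, so replicate 1 labelled WT stood apart here too.

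**Figure D3:**
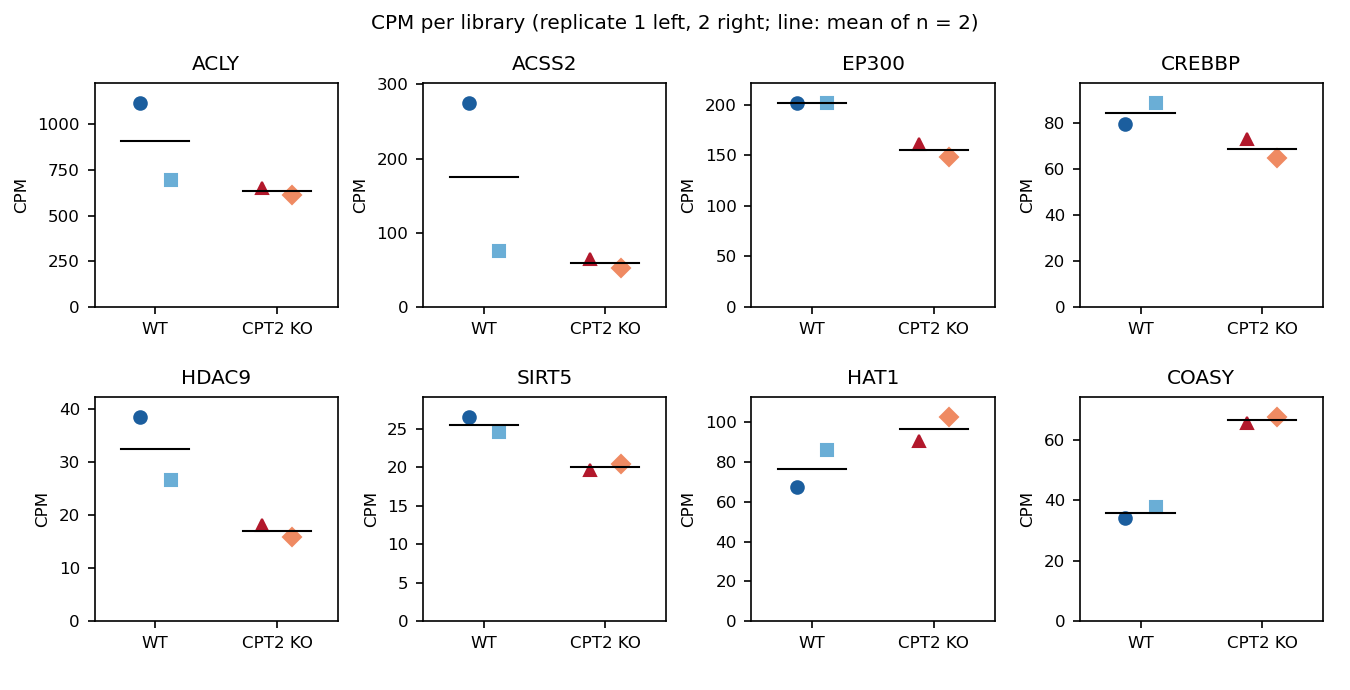
CPM per library (linear axes from 0) of ACLY, ACSS2, EP300, CREBBP, HDAC9, SIRT5, HAT1 and COASY, replicate 1 left and replicate 2 right, with a line at the mean of n = 2. Replicate 1 labelled WT stands alone for ACSS2 at 275 CPM, while the EP300 values labelled WT coincide at 201 CPM.

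Among the acetyltransferases, the paralogues EP300 and CREBBP are coactivators that acetylate histone H3 lysine 27 and many transcription factors, SMAD3 among them. Both had lower values under the label CPT2 KO. EP300 stood at 201 and 201 CPM against 162 and 149 CPM. The values labelled WT coincided, and both labelled CPT2 KO lay below them. The log2 fold change was -0.38 (SE 0.13, 95% interval -0.67 to -0.088, edgeR adjusted p = 0.411). It was as large, -0.38, when replicate 1 labelled WT was left out (edgeR adjusted p = 0.623). CREBBP stood at 79.6 and 88.4 CPM against 72.7 and 64.7 CPM, a log2 fold change of -0.29 (interval -0.61 to 0.03, edgeR adjusted p = 0.591). EP300 spans bases 41091786 to 41180079 of chromosome 22 (plus strand). EP300 exceeded CREBBP per length by 3.35-fold and 3.02-fold under the label WT and 2.94-fold and 3.05-fold under CPT2 KO, so the ratio overlapped between labels. Together they made up 13.9% and 14.6% of the summed acetyltransferase level per length under the label WT and 11.9% and 11.6% under CPT2 KO.

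HAT1, which acetylates new histone H4 before its deposition, had the reverse order. It stood at 67.3 and 86.3 CPM against 90.9 and 103 CPM, with no overlap (log2 fold change 0.33, interval -0.021 to 0.69, edgeR adjusted p = 0.576), and at a log2 fold change of 0.16 when replicate 1 labelled WT was left out. KAT2B, the coactivator PCAF, had 26 and 29 counts against 41 and 33 (log2 fold change 0.51, interval -0.40 to 1.42, edgeR adjusted p = 0.726). Its paralogue KAT2A, a catalytic subunit of SAGA, stood at 55.9 and 53.8 CPM against 60.4 and 47.7 CPM (log2 fold change -0.019). KAT2A exceeded KAT2B per length by 54.7-fold and 52.8-fold under the label WT and 41.1-fold and 33.1-fold under CPT2 KO. These ratios did not overlap, and the 26 to 41 counts of KAT2B limit their precision.

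The MYST acetyltransferases KAT5, KAT6A, KAT6B, KAT7 and KAT8 had log2 fold changes of -0.22, -0.28, -0.18, -0.089 and -0.093. KAT6A stood at 59.4 and 55.1 CPM against 51.9 and 42.4 CPM without overlap. KAT5, the catalytic subunit of TIP60 complexes, stood at 12.5 and 12.8 CPM against 11.5 and 10.2 CPM, also without overlap. KAT6B, KAT7 and KAT8, the last of which acetylates histone H4 lysine 16, overlapped between labels. TAF1, a TFIID subunit, stood at 84.2 and 77.8 CPM against 69.9 and 65.1 CPM (log2 fold change -0.26, interval -0.57 to 0.049). The steroid receptor coactivators NCOA1 and NCOA3 had log2 fold changes of -0.066 and -0.20, and ELP3, the catalytic subunit of Elongator, of -0.097. The cohesin acetyltransferase ESCO1 stood at 93.4 and 93.5 CPM against 100.3 and 93.3 CPM. ESCO2, its relative of S phase, stood at 24.0 and 39.7 CPM against 35.3 and 31.6 CPM, lowest in replicate 1 labelled WT. Exons of KAT5, KAT7 and NCOA3 overlap RNASEH2C, FAM117A and SULF2 on the opposite strand, which had counts, so their reads are uncertain.

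The median log2 fold change of the 16 acetyltransferases was -0.095, and it was -0.18 without replicate 1 labelled WT. It was -0.17 without replicate 1 labelled CPT2 KO. Groups did not overlap for 6 lower (EP300, CREBBP, KAT5, KAT6A, NCOA1 and TAF1) and 2 higher (KAT2B and HAT1), against 19.8% and 21.1% of all tested genes. Replicate 2 labelled CPT2 KO held the lowest of the 4 values for 11 of the 16, against 28.5% of all tested genes.

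**Figure D4:**
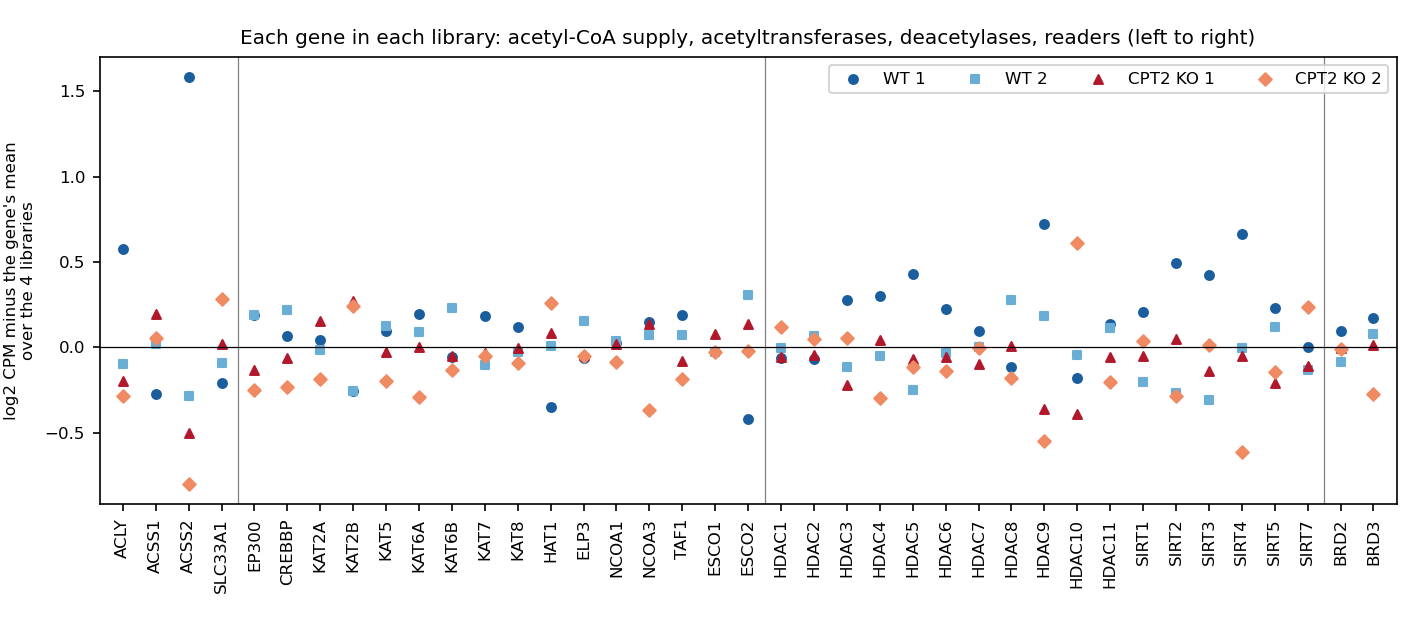
Log2 CPM of each gene in each library minus its mean over the 4 libraries, with vertical lines between the roles. Replicate 1 labelled WT stands far above the rest for ACSS2 and is the highest library for 12 of 17 deacetylases.

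HDAC9 had the smallest p of the members. HDAC9 is a class IIa HDAC, a corepressor of MEF2 factors with weak deacetylase activity of its own. It had 711 and 548 counts against 368 and 265, or 38.5 and 26.6 CPM against 18.2 and 16.0 CPM. Both values labelled CPT2 KO lay below both labelled WT, and replicate 1 labelled WT was the highest. The means were 32.6 ± 8.44 CPM against 17.1 ± 1.59 CPM (SD, n = 2 each), a log2 fold change of -0.93 (SE 0.21, 95% interval -1.40 to -0.45, edgeR adjusted p = 0.137). DESeq2 called it (adjusted p = 0.0193). Leaving out replicate 1 labelled WT gave -0.63, and leaving out replicate 2 labelled WT gave -1.17. HDAC9 spans bases 18086949 to 19002416 of chromosome 7 (GRCh38, GENCODE 29, plus strand).

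The other class IIa genes had smaller fold changes. HDAC7 stood at 112.2 and 105.1 CPM against 98.2 and 104.6 CPM (log2 fold change -0.10) and HDAC4 at 30.4 and 23.8 CPM against 25.4 and 20.1 CPM (log2 fold change -0.25). HDAC5 stood at 88.8 and 55.3 CPM against 62.8 and 60.9 CPM (log2 fold change -0.22). HDAC5 was high in replicate 1 labelled WT alone, and leaving out that library gave 0.16. HDAC7 exceeded HDAC9 per length by 4.94-fold and 6.70-fold under the label WT and 9.13-fold and 11.1-fold under CPT2 KO. The log2 ratio differed by 0.81 between labels, more than its gap of 0.44 within WT and 0.28 within CPT2 KO. Of 14 pairs of related members, this one and KAT2A with KAT2B were the 2 whose labels separated by more than the gaps within them. Ratios also did not overlap for ACSS1 to ACSS2, ACLY to ACSS2 and BRD2 to BRD3, where a gap within a label was larger. No share over other gene pairs was taken, so these separations have no background to be read against. The HDAC7 to HDAC9 ratio is built from the HDAC7 and HDAC9 values above, so it is not a separate result. An exact permutation test of 2 libraries against 2 cannot go below p = 0.333, so none was run on the ratios.

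Class I HDACs are the catalytic subunits of the SIN3, NuRD, CoREST and NCoR complexes, HDAC8 apart. HDAC1 stood at 101 and 105 CPM against 101 and 114 CPM (log2 fold change 0.069, interval -0.23 to 0.37). HDAC2 stood at 544 and 596 CPM against 553 and 589 CPM (log2 fold change 0.0031, interval -0.29 to 0.29). In both genes the labels overlapped. Exons of HDAC2 overlap HDAC2-AS2 on the opposite strand, which had 1920 to 2555 counts, so reads over the shared exons are uncertain. HDAC3 and HDAC8 had log2 fold changes of -0.17 and -0.17, with overlapping groups. HDAC6, a cytoplasmic tubulin deacetylase, and HDAC11 had log2 fold changes of -0.20 and -0.25, without overlap. HDAC10, a polyamine deacetylase, had 17 to 28 counts (log2 fold change 0.26, interval -0.90 to 1.43), and its exons overlap MAPK12, which had 335 to 517 counts, so its value is uncertain.

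Of the sirtuins, SIRT1, a nuclear deacetylase of histones, p53 and other factors, stood at 154 and 116 CPM against 129 and 138 CPM (log2 fold change -0.021, interval -0.37 to 0.33). SIRT5, a mitochondrial enzyme that removes succinyl and malonyl groups, stood at 26.5 and 24.6 CPM against 19.6 and 20.4 CPM. Its labels did not overlap and its replicates lay close together (log2 fold change -0.35, interval -0.74 to 0.036, edgeR adjusted p = 0.591). SIRT3, the main mitochondrial deacetylase, stood at 20.8 and 12.5 CPM against 14.1 and 15.7 CPM, and SIRT2, mainly cytosolic, at 11.6 and 6.84 CPM against 8.51 and 6.75 CPM. Both were highest in replicate 1 labelled WT, and their log2 fold changes of -0.16 and -0.26 were 0.24 and 0.17 when it was left out. Their exons overlap PSMD13 and NFKBIB on the opposite strand, so their reads are uncertain. SIRT4, also mitochondrial, had 10 to 27 counts (log2 fold change -0.63, interval -1.85 to 0.58, edgeR adjusted p = 0.742). SIRT7, a nucleolar sirtuin whose exons overlap MAFG, had a log2 fold change of 0.13.

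The median log2 fold change of the 17 deacetylases was -0.17. Leaving out replicate 1 labelled WT gave -0.053, and leaving out replicate 2 gave -0.32. The same for the label CPT2 KO gave -0.24 and -0.16. Groups did not overlap for 6 lower (HDAC6, HDAC7, HDAC9, HDAC11, SIRT4 and SIRT5) and 0 higher, against 19.8% and 21.1% of all tested genes. Replicate 1 labelled WT held the highest value for 12 of the 17, against 31.8% of all tested genes. That library is the one with high hypoxia and glycolysis genes, and the part of those genes in the deacetylase values was not tested.

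The readers BRD2 and BRD3 are bromodomain proteins that hold transcription complexes on acetylated histones. BRD2 stood at 254 and 224 CPM against 237 and 236 CPM (log2 fold change -0.013, interval -0.31 to 0.28, edgeR adjusted p = 0.985). BRD3 stood at 109 and 102 CPM against 97.4 and 79.6 CPM, with no overlap (log2 fold change -0.25, interval -0.58 to 0.079, edgeR adjusted p = 0.640). Exons of BRD3 overlap the antisense gene BRD3OS, which had 200 to 296 counts.

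**Figure D5:**
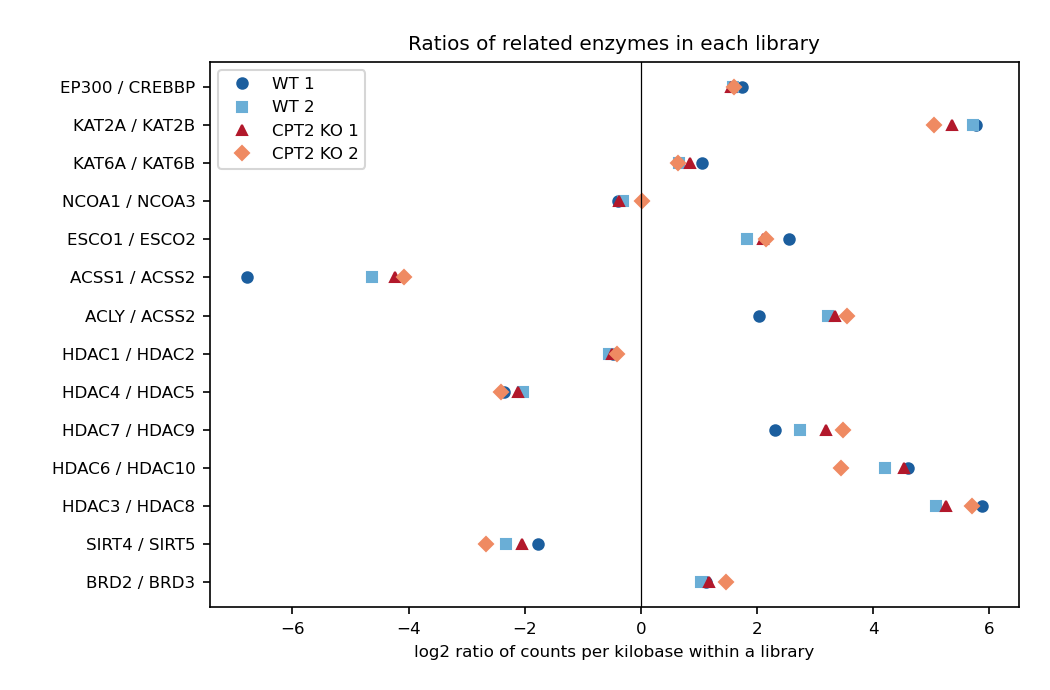
Log2 ratio of counts per kilobase of 14 pairs of related members, each point 1 library. The ratio of ACSS1 to ACSS2 lies at -6.79 in replicate 1 labelled WT and from -4.62 to -4.07 in the other 3 libraries. It does not overlap between labels, and neither do those of HDAC7 to HDAC9, KAT2A to KAT2B, ACLY to ACSS2 and BRD2 to BRD3.

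Other genes of the same pathways were read from the same fit, in 7 lists with 167 genes, of which 162 were tested. Of these, 1 was called, where 0.416% of all tested genes were, and 11 had an unadjusted p below 0.05, where 9.04% of all tested genes did. The called gene was COASY, the enzyme of the last steps of coenzyme A synthesis, which rose under the label CPT2 KO. It had 632 and 778 counts against 1326 and 1123, or 34.3 and 37.8 CPM against 65.6 and 67.7 CPM. Replicates of each label lay close together and the labels were far apart. The means were 36.0 ± 2.48 CPM against 66.7 ± 1.44 CPM (SD, n = 2 each), a log2 fold change of 0.89 (SE 0.15, 95% interval 0.56 to 1.22, edgeR adjusted p = 0.0332). DESeq2 and limma-voom also called COASY. It was not called when replicate 1 labelled CPT2 KO was left out (log2 fold change 0.91, edgeR adjusted p = 0.323), nor when replicate 2 was (0.87, edgeR adjusted p = 0.240). COASY spans bases 42561467 to 42566277 of chromosome 17 (plus strand), and the gene that overlaps its exons had 0 counts.

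In the list of acetyl-CoA sources and CoA synthesis, 24 genes were tested, 8 with positive and 16 with negative log2 fold changes (median -0.15). Without replicate 1 labelled WT there were 12 of each (median 0.0013), and without replicate 2 labelled WT the median was -0.30. PANK3, a kinase of the first step of CoA synthesis, and ACACA, which turns acetyl-CoA into malonyl-CoA, were chosen after their values were seen. Their log2 fold changes were -0.49 and -0.38 (edgeR adjusted p = 0.407 and 0.493).

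Subunits of acetyltransferase complexes gave 0 calls among 40 (median -0.12) and subunits of deacetylase complexes 0 among 34 (median -0.032). With each library left out in turn these medians ran from -0.12 to -0.043 and from -0.048 to 0.0056, the former nearest 0 without replicate 2 labelled CPT2 KO and the latter above 0 only without replicate 2 labelled WT. YEATS2, of the ATAC complex, had a log2 fold change of -0.61 and ING4, of KAT7 complexes, of -0.40 (edgeR adjusted p = 0.437 and 0.617). The log2 fold changes of TNRC18 and of MBD2, a NuRD subunit, were -0.44 and -0.43, with edgeR adjusted p = 0.411 and 0.560. Other acetyl-lysine readers gave 0 calls among 29 (median -0.093, from -0.12 to -0.014 with each library left out, nearest 0 without replicate 2 labelled CPT2 KO). With replicate 1 as the lone library labelled WT, log2 fold changes of these readers ran from -0.78 to 1.73. In the full fit they ran from -0.45 to 0.87. SMARCA2, a bromodomain ATPase of BAF complexes, stood at 11.0 and 9.85 CPM against 19.0 and 16.5 CPM (log2 fold change 0.77, interval 0.31 to 1.23, edgeR adjusted p = 0.227), and BPTF had a log2 fold change of -0.31.

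Genes of NAD synthesis and use gave 0 calls among 15 (median -0.074). That median was -0.12 on leaving out replicate 1 labelled CPT2 KO and -0.03 on leaving out replicate 2. NAMPT, the rate-limiting enzyme of NAD salvage, and NADK2, a mitochondrial NAD kinase, had log2 fold changes of -0.45 and -0.34. Other protein acetyltransferases gave 0 calls among 16 (median 0.059), with -0.44 for CDYL and 0.32 for NAA10, which acetylates protein N termini. Leaving out replicate 1 labelled WT took that median to 2.5e-05, and leaving out replicate 1 labelled CPT2 KO to 0.023. The 4 SMAD genes gave 0 calls, all with positive log2 fold changes. Of these, 1 turned negative on leaving out replicate 1 labelled WT, and 2 on leaving out replicate 2 labelled CPT2 KO. All stayed positive on leaving out replicate 2 labelled WT, with the largest at 0.85 against 0.50 in the full fit. SMAD3 stood at 56.3 and 55.3 CPM against 69.8 and 67.3 CPM (log2 fold change 0.30, interval -0.013 to 0.61, edgeR adjusted p = 0.569). SMAD7, the inhibitory SMAD, stood at 36.2 and 56.3 CPM against 65.4 and 65.1 CPM (log2 fold change 0.50, edgeR adjusted p = 0.493) and was lowest in replicate 1 labelled WT.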

How the data were processed

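Total RNA of 4 HUES8 libraries was sequenced, 2 with the genotype label WT and 2 with CPT2 KO. The deposited table holds raw counts per gene symbol with gene lengths, per the file headers. HISAT2 2.1.0, featureCounts 1.6.4 and GRCh38 are named in the submitters' processing notes. No source used here gives the strand setting or annotation release. It is therefore uncertain whether reads over exons shared by genes were counted, and for which gene.

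Genes were filtered with filterByExpr and tested with the quasi-likelihood test of edgeR 4.0.16 (R 4.3.3, TMM scaling, robust estimation, group as the only term, Benjamini-Hochberg adjustment over all tested genes, threshold 0.05). SEs come from the fold change over the square root of F, and 95% intervals from the matching t quantile. CPM use TMM-scaled library sizes, and 1 count was worth 0.0485 to 0.0603 CPM. Alternatives were DESeq2 1.42.0, limma 3.58.1 (voom), other scalings and filters, the replicate block, each library left out and, added after the data were seen, the legacy quasi-likelihood estimate. The values of 1 marker gene are not reported here. The members and lists were chosen with earlier results of these data known. All members are named, and from each other list the called genes, or else the 2 with the smallest p, beside PANK3, ACACA and the called or absent markers, chosen after their values were seen. Positions are from GENCODE 29, matched by symbol, and promoter windows from RefSeq (GRCh38.p14).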

Additional observations from a re-analysis of the deposited data

How the results depend on the processing

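No member was called in 11 of 14 alternatives (the stricter filter on low counts kept 37 members). Members called lower numbered 1 with DESeq2 and 1 with the replicate block (HDAC9 in both, at adjusted p = 0.0193 and edgeR adjusted p = 0.0100), and 0 to 3 with each library left out, the 3 being ACLY, ACSS2 and HDAC9 without replicate 2 labelled WT. Fold changes changed sign in at least 1 alternative for 17 members, none of them called in any, and kept it for 22. Leaving out 1 library in turn moved the member median between -0.21 and -0.060, the acetyltransferase median between -0.18 and -0.065, the deacetylase median between -0.32 and -0.053, and the partner median between -0.075 and -0.017. Partner genes called higher then numbered 0 to 4 and lower 0 to 12, and all genes called higher 23 to 490 and lower 1 to 643, the highest counts all without replicate 2 labelled WT. A library left alone in its group is assumed to vary like the others.

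All genes called numbered 63 higher and 10 lower in the full fit, 149 and 46 with DESeq2, and 101 and 23 with no filter on low counts. The replicate numbers are not stated to pair the libraries. Replicate 1 of each label deviated together with a correlation of 0.17 across genes, on 2 pairs only. With the replicate block, 233 genes were higher and 140 lower (2.12% of all tested), and 2 partner genes, PANK3 and YEATS2, were called lower. Genes with few counts, such as HDAC10, SIRT4 and KAT2B, have intervals that include a 2-fold change.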
